A study of Saposhnikovia divaricata with 9 samples.

Results

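A set of 143 transcript clusters in leaves of Saposhnikovia divaricata stood low in every library of group C, higher in every library of group M and higher again in every library of group L. They were chosen from the 63753 clusters of the deposited FPKM table by their values in all 9 libraries. The lowest M value had to reach 2 times the highest C value plus 1, which is called the C-to-M step here. The lowest L value had to reach 2 times the highest M value plus 1, called the M-to-L step. The lowest L value also had to be at least 10 FPKM and the C mean below 1000 FPKM. FPKM relates the fragments of a cluster to its length and to all mapped fragments of that library. All 3 groups were used in the choice, so the rises below describe the chosen clusters and carry no test.

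Saposhnikovia divaricata is a medicinal herb of the carrot family. Leaf poly(A) RNA was sequenced in 9 libraries, with 3 libraries per code C, M or L. The study's design text gives plants aged 48 days, controls without cold, and 2 lengths of cold treatment, 6 h and 48 h at 4 °C. No label links a code to any of these conditions. The groups are therefore named by their codes, and their order C, M, L is that of the rule and not a stated order in time. No genotype or line is given, and nothing says whether the replicates came from separate plants. The extraction protocol in the labels is written for an animal tissue, which cannot describe leaves. Leaf identity could not be checked against markers, because the table used here holds a column of cluster identifiers and the 9 FPKM columns, without gene names. For this reason 2 members are named by identifier and the others by their place in the set.

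Plants of temperate climates become more freezing tolerant after a time at low, non-freezing temperature, a process called cold acclimation. In Arabidopsis, transcription factors of the CBF family are induced early in the cold. They bind promoters of cold-regulated genes, whose products include dehydrins and other protective proteins, and these transcripts accumulate later. Whether any member belongs to this system is not known from the files.

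Both steps together were met by 0.224% of all clusters. The C-to-M step was passed by 993 clusters, members included, or 1.56% of the table, and the M-to-L step by 945, or 1.48%. The members were 14.4% of the former and 15.1% of the latter. The limits on the L and C levels removed no cluster that had passed both steps, and the limit of 300 on the size of the set was not reached. The same rule was applied to the other 5 orders of the codes. The reverse order, from L up through M to C, was met by 45 clusters. The orders with M highest were met by 3 clusters each, and the orders with M lowest by 0. More clusters thus met both steps in the order of the rule than in the reverse order. Falls over a single step were not counted over the whole table. The difference between the 2 orders grew when the libraries were brought to the same median, with 250 clusters against 16. With quantile normalization it was 162 against 29.

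The members were at low abundance in C and at high abundance in L. Their median level was 2.18, 3.58 and 3.29 FPKM in C replicates 1 to 3. In the M libraries it was 34.3, 40.1 and 35.1 FPKM. In the L libraries it was 228.1, 252.8 and 229.1 FPKM. The member means spanned 0 to 309.2 FPKM in C, 3.84 to 1247 in M and 22.0 to 10988 in L. In C, 3 members were listed at 0 in all 3 libraries and a further 10 in at least 1 library. In 29 members every C value was under 1 FPKM. An exact 0 can be a failed estimate, so these clusters are only said to be listed at 0. In RNA from whole leaves, more cells of a type and more RNA per cell cannot be told apart.

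**Figure D1:**
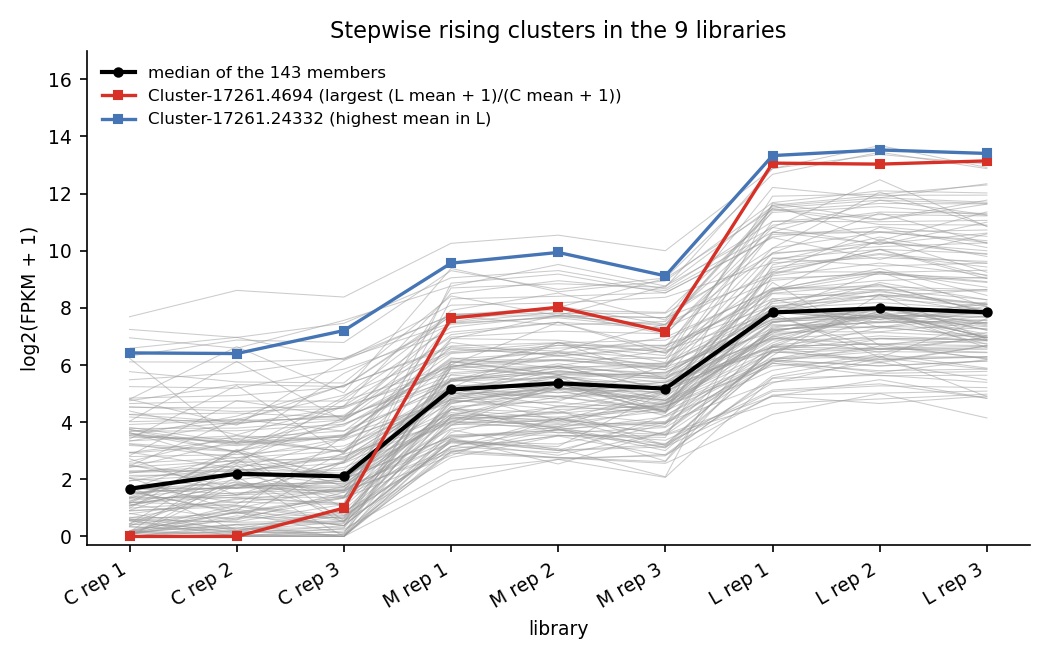
FPKM of the 143 members in the 9 libraries, as log2(FPKM + 1), with 1 grey line joining the values of each member and the black line their median. The median lies between 2.18 and 3.58 FPKM in the C libraries, between 34.3 and 40.1 in M and between 228.1 and 252.8 in L, and the 2 members named by identifier are drawn in colour.

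As a part of the library, the members took 0.187%, 0.227% and 0.258% of all FPKM in C replicates 1 to 3. In the M libraries they took 1.497%, 1.715% and 1.495%. In the L libraries they took 14.8%, 17.3% and 15.7%. The group values were 0.224% ± 0.0357 in C, 1.57% ± 0.126 in M and 15.9% ± 1.28 in L (mean ± SD, n = 3). The groups did not overlap, which follows from the rule, since it asks for separated groups in every member. These parts do not change when a library is multiplied by a single factor.

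Ranks within a library, which also do not depend on such a factor, gave the same order of the groups. The median rank of the members, counted from the most abundant cluster, was 23686, 20846 and 21191 in the C libraries. It was 3847, 3313 and 3688 in the M libraries and 484, 454 and 476 in the L libraries. Among the 1000 most abundant clusters of a library there were 3 to 4 members in C, 28 to 30 in M and 101 to 108 in L. Among the 100 most abundant there were none in the 3 C libraries, 1 to 2 in M and 32 to 36 in L. Of the 101 clusters of the table whose L mean reached 1000 FPKM, 35 were members, or 34.7%. The rule's limit on the C mean allows no member at this level in C. In M a single member was at this level.

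**Figure D2:**
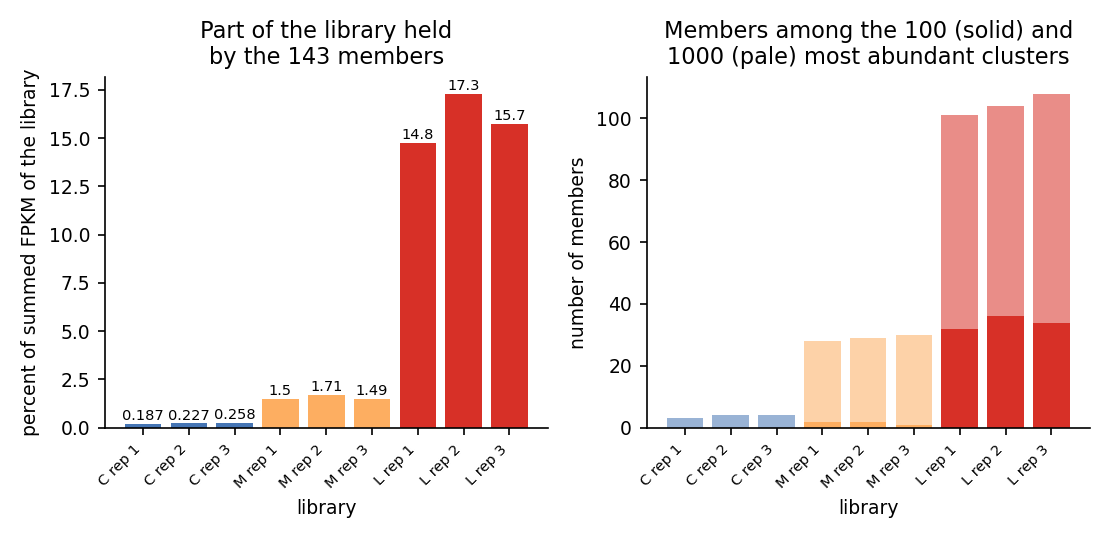
Left, percent of the summed FPKM of each library that the 143 members held. Right, number of members among the 100 (solid) and the 1000 (pale) most abundant clusters of each library. The L libraries hold 14.8% to 17.3% on the left and 101 to 108 members among the top 1000 on the right, against 0.187% to 0.258% and 3 to 4 in C.

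The gain between groups was summed over clusters with a higher mean in the group that the rule places higher. Over the 22337 clusters higher in L than in C, the members supplied 35.0% of the summed gain in FPKM. From C to M they supplied 6.20% of the gain over 31043 clusters, and from M to L 38.5% of the gain over 19040. Their contribution to the abundance of M was therefore small beside that to L. These parts were computed on the libraries that chose the members.

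In FPKM as deposited the 2 steps had similar medians on the log2 scale. The C-to-M step, as log2 of the ratio of means after adding 1 FPKM to each, had a median of 2.77 with quartiles of 2.12 and 3.55 and a range of 1.25 to 7.77. The M-to-L step had a median of 2.62 with quartiles of 1.91 and 3.61 and a range of 1.30 to 7.32. In 78 members the C-to-M step was the larger and in 65 the M-to-L step. After median scaling the medians were 2.73 and 3.56, and after quantile normalization 2.78 and 2.59. Which step was larger in most members depended on scaling, since the C-to-M step was larger in 32 members after median scaling and in 81 after quantile normalization. Among the 35314 clusters that reached 1 FPKM in 3 or more libraries the median change was -0.05 from C to M and -0.54 from M to L (log2). After median scaling these medians were -0.06 and 0.10.

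Expressed as a ratio of means with 1 FPKM added, the rise from C to L had a median of 49.8-fold, with quartiles of 23.0 and 121.3. The ratio depends on the added 1 FPKM, most of all in the 35 members with a C mean under 1 FPKM, of which 3 were listed at 0 throughout C. The ratio reached 100-fold in 42 members and 1000-fold in 8, and was under 10-fold in 8. Both steps reached 4-fold in 89 members, 8-fold in 28 and 16-fold in 11. Both were under 4-fold in 16. In M a member stood at a median of 15.9% of its L level, with quartiles of 7.89% and 25.9% and a highest value of 40.0%. The fold that the rule asks of the M-to-L step sets the upper end of this value.

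**Figure D3:**
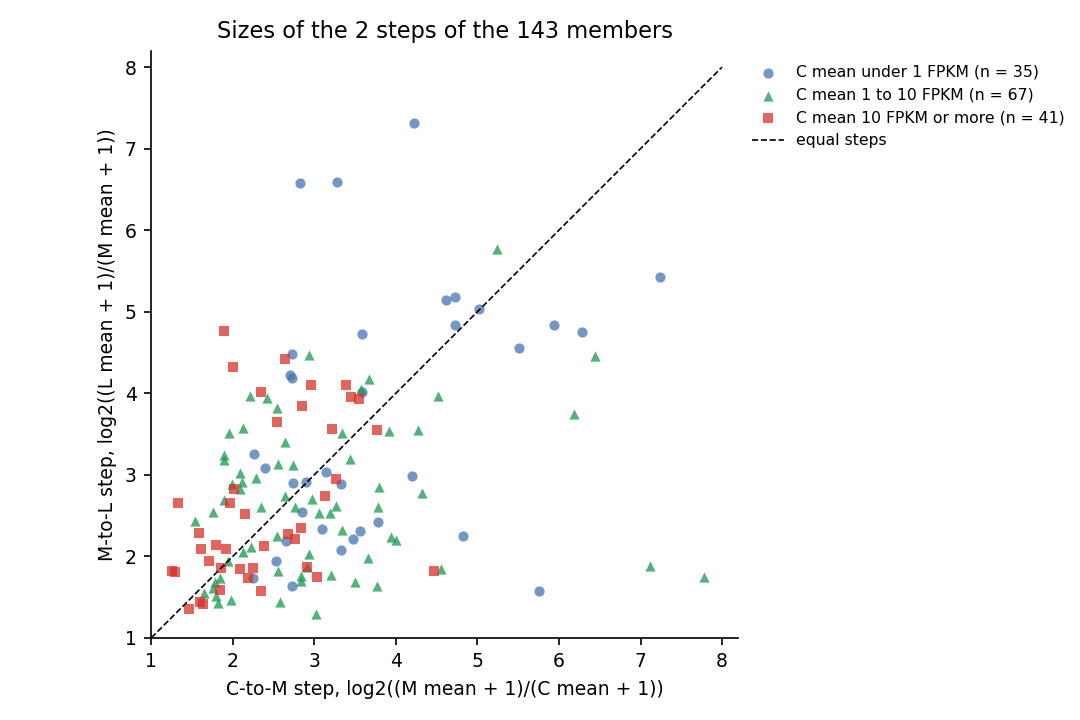
Size of the C-to-M step against that of the M-to-L step for the 143 members, both as log2 of the ratio of group means with 1 FPKM added, coloured by the C mean. The points lie on both sides of the line of equal steps, 78 with a larger C-to-M step and 65 with a larger M-to-L step.

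Across members the sizes of the steps were weakly related, with Pearson's r of 0.37 and Spearman's rho of 0.38 over 143 members. The M mean enters both steps with opposite sign, and all members share the same 9 libraries, so this is a description only. Between group means over the members, Spearman's rho was 0.70 for C with M, 0.80 for M with L and 0.40 for C with L. The rule ties C to M and M to L directly, so these values describe the chosen clusters only.

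The members were also grouped by their level in C. In 35 members the C mean was under 1 FPKM. Their medians were 0.33 FPKM in C, 11.2 in M and 183.2 in L, with a median C-to-M step of 3.33 and M-to-L step of 3.09 (log2). In 67 members the C mean was from 1 to under 10 FPKM. Their medians were 2.89, 30.2 and 171.2 FPKM, with steps of 2.77 and 2.61. In 41 members the C mean was 10 FPKM or more. Their medians were 21.1, 159.1 and 1074 FPKM, with steps of 2.25 and 2.27. The L mean was 1000 FPKM or more in 21 of these 41, in 7 of the 67 and in 7 of the 35. The rule asks for a higher L value where C is higher, and C is the divisor of the C-to-M step, so these differences between classes are a description of values the rule used. Adding 1 FPKM shortens the C-to-M step mostly in the lowest class.

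Cluster-17261.24332 had the highest L mean. It stood at 84.9, 83.5 and 146.7 FPKM in C, at 756.7, 981.7 and 555.8 in M and at 10302, 11814 and 10847 in L. Its highest L value was 1.15 times its lowest. The C-to-M step was 2.85 and the M-to-L step 3.84 (log2), so the latter was the larger.

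Cluster-17261.4694 had the largest ratio of L to C with 1 FPKM added to both means. With 0.1 added, a choice made after the values were seen, it was placed 2, after a member listed at 0 throughout C. It was listed at 0 in C replicates 1 and 2 and stood at 0.99 FPKM in C replicate 3, at 198.5, 258.9 and 142.5 in M and at 8579, 8373 and 9056 in L. Among the members it was placed 4 by its L mean and 126 by its C mean. Its M level was 2.31% of its L level. Its ratio to C is not printed, since 2 of the 3 C libraries listed it at 0.

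The 10 members with the highest L means held 45.8% to 46.9% of the FPKM of all 143 in the L libraries, and 6.77% to 8.03% of the whole library. In C they held 0.0682% to 0.0981% of the library. They differed in their C and M levels. The member placed 2 stood at 4.70, 2.22 and 5.02 FPKM in C, at 414.1, 458.5 and 420.5 in M and at 7500, 13154 and 7727 in L. The member placed 3 stood at 205.4, 390.2 and 332.1 FPKM in C, at 1224, 1493 and 1024 in M and at 7524, 10588 and 8379 in L. Between them their L values overlapped, while their C values were far apart. The latter also had the highest C mean of the set and the only M mean above 1000 FPKM.

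The member placed 5 stood at 78.5, 116.4 and 109.7 FPKM in C, at 630.8, 400.1 and 527.1 in M and at 6540, 11187 and 7504 in L. Here L replicate 2 lay above the other L libraries, as it did for the member placed 2. The members placed 6 to 10 had L means of 4553, 4312, 3942, 3656 and 3347 FPKM. Their C means ranged from 1.09 to 135.3 FPKM.

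The 3 members with the largest C-to-M steps were not those with the 3 largest M-to-L steps. The member with the largest C-to-M step, 7.77 (log2), stood at 0.99, 1.31 and 1.16 FPKM in C, at 464.8, 579.7 and 366.6 in M and at 1433, 1839 and 1450 in L. Its M-to-L step was 1.74, below the median of the set. A further member, with a C-to-M step of 7.12, stood at 1.58, 1.56 and 1.24 FPKM in C, at 317.4, 338.1 and 368.6 in M and at 1406, 826.7 and 1538 in L, a step of 1.88. Cluster-17261.4694 lay between these in its C-to-M step but had an M-to-L step of 5.43.

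The member with the largest M-to-L step, 7.32 (log2), was listed at 0 in all C libraries and stood at 11.4, 22.7 and 18.8 FPKM in M and at 3252, 2187 and 3495 in L. Its M level was 0.593% of its L level, the lowest of the set. The next was listed at 0 in C replicates 1 and 2 and at 0.14 FPKM in C replicate 3. It stood at 6.88, 10.6 and 10.0 FPKM in M and at 726.3, 1277 and 934.4 in L, a step of 6.59. The one after that, with a step of 6.58, was at 0.25 FPKM in C replicate 2 and listed at 0 in the others. It stood at 9.28, 7.42 and 3.25 FPKM in M and at 573.9, 1059 and 556.1 in L. These 3 were low in M and among the abundant clusters in L.

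At the C-to-M threshold, the closest members had a lowest M value of 2.02 and 2.04 times the highest C value plus 1, and the closest clusters outside reached 1.99 times in both cases. At the M-to-L threshold the closest members reached 2.04 times in both cases, and the closest clusters outside 1.99 and 1.96 times. Between 2 and 2.5 times lay 30 members for the C-to-M step and 31 for the M-to-L step. Just below, between 1.5 and 2 times, lay 60 clusters that had passed the M-to-L step only, and 39 that had passed the C-to-M step only. The set has no natural edge at these limits. The lowest L values of the set were 16.7 and 24.2 FPKM, above the minimum of 10.

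The clusters that passed the C-to-M step differed in how their L values lay against M. Besides the 143 members, 135 clusters had every L value above every M value by less than the rule asks, and in 317 the L values overlapped those of M. A further 200 lay below M in L by less than the mirrored rule asks, and 198 lay below M by it. In 174 of the latter the lowest L value did not exceed the highest C value. Of all 993, 418, or 42.1%, had a higher mean in L than in M, beside 19040 of the 63753 clusters of the table. The other classes, overlap included, were not counted over the whole table. After median scaling the rule was applied anew, and 917 clusters passed the C-to-M step. Of these, 251, or 27.4%, passed both steps without the limits on the L and C levels, against 14.4% as deposited. The part that was lower in L than in M by the mirrored rule was 10.7%, against 19.9%. The part with overlapping L and M values was 31.7%, against 31.9%. The 850 that passed the C-to-M step alone had a median step of 2.45 (log2), against 2.77 in the members, with median C levels of 2.03 and 3.22 FPKM. In M their median was 19.2 FPKM, against 35.2 in the members. This difference was not tested, since the M values also enter the M-to-L step of the rule.

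Of the 945 clusters that passed the M-to-L step, 457 had M values overlapping those of C, and 293 lay above C in M by less than the rule asks. A further 45 lay below C in M by less than the mirrored rule asks, and 7 lay below by it. Altogether 688 of 945, or 72.8%, had a higher mean in M than in C, beside 31043 of the 63753 clusters of the table. The other classes were not counted over the whole table here either. The 802 that passed the M-to-L step alone had a median M-to-L step of 2.32 (log2), against 2.62 in the members, and a median L level of 40.5 FPKM, against 225.2 in the members. In M they stood at a median of 15.98% of their L level, close to the 15.9% of the members. The medians of C were 4.95 FPKM in these clusters and 3.22 in the members. The members thus lay further above these clusters in L than they lay below them in C. The rule uses both levels, so no test was made.

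**Figure D4:**
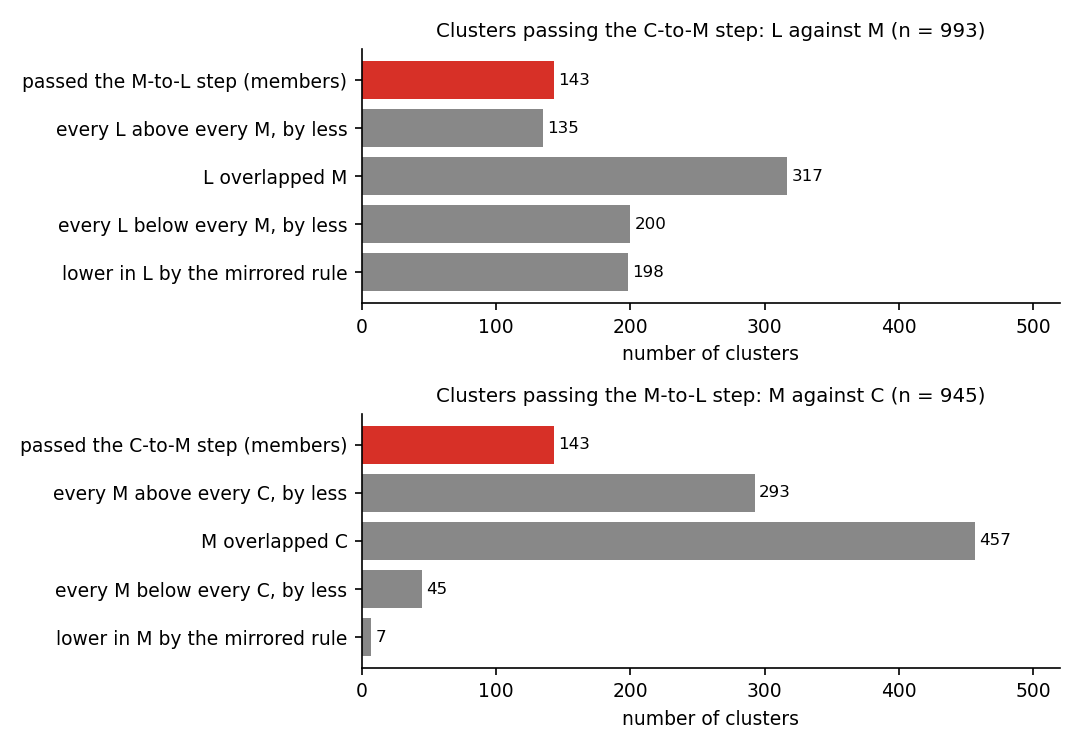
Top, the 993 clusters that passed the C-to-M step by their L values against M. Bottom, the 945 clusters that passed the M-to-L step by their M values against C. Bars are numbers of clusters and the red bars are the 143 members. Overlap with the other group is the most frequent class in both, with 317 and 457 clusters.

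The members' replicates differed less in L than in C, where most members did not reach 10 FPKM. The highest L value of a member was a median of 1.38 times the lowest, with quartiles of 1.21 and 1.75, and 21 of 143 members reached 2 times. Over all 7089 clusters with at least 10 FPKM in every L library the median was 1.37 times, and 13.0% reached 2 times, beside 14.7% of the members. In M the median was 1.502 times in the members. Among the 117 with at least 10 FPKM in every M library it was 1.44 times, beside 1.26 times over all 10033 such clusters. In C, 28 members had at least 10 FPKM in every library. Their median was 1.51 times, against 1.35 times over 9625 such clusters. At 10 FPKM or more in every library of a group, the members therefore spread more than all such clusters in C and M. In L they spread about as much. The C comparison rests on 28 members, and the clusters were not matched for level. The rule also uses the highest C, the lowest and highest M and the lowest L values. The choice of members thus bears on these ratios, which are a description only.

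Single libraries leaned in 1 direction across the set. L replicate 2 was the highest L library in 92 of 143 members, or 64.3%, beside 41.1% of the 7089 clusters. L replicate 1 was the lowest in 76 members, or 53.1%, beside 29.5%. M replicate 2 was the highest M library in 75 members, or 52.4%, beside 34.2% of the 10033 clusters. The lean of L replicate 2 depended on scaling: it was highest in 114 members after median scaling, in 108 after upper quartile scaling and in 67 after quantile normalization. M replicate 2 was highest in 72 to 73 under these scalings. In C, replicate 1 was the lowest in 80 members, or 55.9%, and replicate 3 the highest in 68, or 47.6%. Over the 9625 clusters with at least 10 FPKM in every C library, a level most members did not reach, these shares were 38.1% and 35.3%.

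The widest spread among L libraries was found in a member at 474.0, 101.9 and 139.8 FPKM, where the highest was 4.65 times the lowest. The next was at 79.3, 352.4 and 117.7 FPKM, and the one after it at 1090, 4248 and 1858. L replicate 1 was the high library in the first of these and L replicate 2 in the others. In C, 8 members had a value in replicate 2 of at least 2 times the higher of the others plus 1, 8 had such a value in replicate 3, and 0 in replicate 1. Among those with a high replicate 2 was the member placed 6 in L, at 15.4, 68.8 and 15.6 FPKM in C. The same count was not made over all clusters, and the rule limits the highest C value, so these counts only describe the members. Leaving out C replicate 2 lengthened the set to 161 clusters and leaving out C replicate 3 to 184. Leaving out any other library also lengthened it, to between 144 (C replicate 1) and 177 (M replicate 2).

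The identifier of a cluster was not used by the rule. All 143 members carry the parent number 17261, as do 69.8% of the table. It is also carried by 99.9% of the 7089 clusters whose L values all reached 10 FPKM. Within this parent 14 members, or 9.79%, had another member at the next number up or down. Of the 44383 other clusters of the parent 270, or 0.608%, had a member as such a neighbour. The 14 members formed 7 pairs. Their M-to-L steps differed by a median of 0.17 (log2) within a pair, against 1.04 over all 10153 pairs of members. The C-to-M steps differed by 0.49 within a pair and by 0.98 over all. Cluster-17261.4694 belonged to such a pair. Its partner stood at 0, 3.28 and 0 FPKM in C, at 58.8, 108.7 and 67.1 in M and at 3848, 4040 and 5049 in L, and was placed 7 in L. The files do not say whether consecutive numbers stand for related sequences. If they do, some of these pairs may count 1 gene more than once, which was not tested.

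The 270 neighbours that were not members, and so by definition did not pass both steps, were also examined. Of these, 12 passed the C-to-M step, or 4.44%, beside 1.82% of the 44113 remaining clusters of the parent. The M-to-L step was passed by 7, or 2.59%, beside 1.77%. Every L value was at least 2 times the highest C value plus 1 in 14, or 5.19%, beside 3.44%, and in 2.66% of the whole table. Members with numbers under 5000 made up 17.5% of the set, beside 11.2% of the parent. They had a median C level of 0.513 FPKM and a median L level of 323.5, against 4.12 and 218.2 in the other members.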

How the data were processed

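FPKM per cluster and library were calculated by the authors and deposited in 1 table with 2 decimals, named so per the file headers. Not given in the sources used here are the assembler, the aligner and the tool that counted fragments, and the genome build in the labels is a mouse build and was not used. Library totals of FPKM ran from 863749 to 932785. Depth in fragments is unknown, so no counting interval is given. No 2 libraries held identical values. Of the 63753 clusters, 129 were at 0 in every library. No filter on low values was applied before the rule.

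The members, rules and descriptions were chosen with earlier results of these data known. Because the rule used every library and all 3 contrasts, no test was run. Steps are log2 of group means with a pseudocount of 1 FPKM. The code was tested on simulated data. Python 3.11.15, pandas 2.3.3, numpy 2.4.6 and matplotlib 3.10.9 were used. The 2 members named by identifier were the one with the largest ratio of L to C with 1 FPKM added and, of the rest, the one with the highest L mean. Others were taken by rank in L level, C level, step size and L spread. Alternatives changed the scaling, the constant, the thresholds, the use of means, and left out each library in turn. No gene list or marker list could be matched to unnamed clusters.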

Additional observations from a re-analysis of the deposited data

How the results depend on the processing

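The number of clusters meeting the rule was 143 as reported. It rose to 250 with median scaling, which kept 142 of the 143, to 216 with upper quartile scaling, which kept all 143, to 270 with a fold threshold of 1.5 and to 412 when group means were compared in place of the lowest and highest libraries. It fell to 82 with an added constant of 5 and to 60 with a fold threshold of 3. Quantile normalization gave 162 and kept 138, an added constant of 0.1 gave 199, and other limits on the L and C levels gave 142 to 143. Leaving out 1 library gave 144 to 184 clusters, and each time all 143 remained, since dropping a library only loosens the rule. The median C-to-M step of 2.77 became 3.28 with a pseudocount of 0.1 and 1.94 with 5 (log2), and ran from 2.65 to 2.84 when 1 library was left out. The median M-to-L step of 2.62 became 3.56 with median scaling and 2.47 with a pseudocount of 5, and ran from 2.55 to 2.67. The members' part of the FPKM of L, 15.9%, was 13.6% after quantile normalization and 15.3% to 16.5% when 1 library was left out. The causes of these shifts were not tested. No paired analysis was possible because the choice of members used every contrast, so that no test was run, and no label ties libraries of the same number together. FPKM are relative, and low C values rest on few fragments of unknown number, so large ratios against C are imprecise.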
